A study of Nothobranchius furzeri with 8 samples.

Results

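This is an account of 6 genes for RNA-binding regulators in the brain of the turquoise killifish *Nothobranchius furzeri*. They are *NOVA2* (Nfu_g_1_016415), *TNRC6C* (Nfu_g_1_013732), *FAM120A* (Nfu_g_1_001852), 1 copy of *DDX3X* (Nfu_g_1_013975) and the copies Nfu_g_1_009159 and Nfu_g_1_006604 of *HNRNPK*, that is, 6 of the 26739 genes in the count table. They were picked by identifier because earlier results on these libraries had shown how they differ between wild and captive fish. Their difference between the groups is therefore given as a description, without a test. Whole brains of 4 wild males, aged 39 days, were compared with whole brains of 4 captive males, aged 35 days. Wild fish were of population A41 (strain label MZM_A41), caught in a natural pond, and the captive strain was MZM-0410, whose fish were kept singly at constant temperature and fed midge larvae. No allele, transgene or treatment was applied to either group.

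The groups differed in more than where the fish lived. The population and the strain belong to the same lineage but are genetically distinct. Wild brains were stored in RNAlater and frozen later, captive brains were snap frozen with dry ice, and age differed by a few days. The RNA integrity numbers listed for these libraries were lower in every wild fish than in any captive fish. Captive fish were fasted when sacrificed, and wild fish were netted and dissected at once. Origin, genotype, feeding state, capture, storage, integrity and age therefore cannot be told apart. Each library is a separate fish. Total counts were 13923243 to 14541119 in wild fish and 11814586 to 14393377 in captive fish. Levels are given as CPM, the count of a gene scaled to a common library total, on the TMM scale of edgeR, which corrects for library composition, and fold changes are those of wild over captive fish on the log2 scale.

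The libraries held the transcripts of a brain. Named markers of neurons, which include *SNAP25*, *SYT1* and *ELAVL3*, gave 22 genes in the table. None of them was at 0 in all libraries together, and they summed to 6603 to 7174 CPM in wild fish and 7120 to 7785 CPM in captive fish. The 6 genes of radial glia and astrocytes summed to 5124 to 7027 CPM in wild and 3577 to 4935 CPM in captive fish, and the 9 genes of oligodendrocytes to 4884 to 7629 CPM in wild and 7375 to 11400 CPM in captive fish. The 5 red cell genes summed to 104.2 to 126.6 CPM in wild and 161.3 to 202.4 CPM in captive fish. *TNNT3*, the one named gene of skeletal muscle, was at 9.01 to 19.2 CPM in wild and 4.35 to 6.85 CPM in captive fish, and no gene of the microglia list had a name here. Of the neuron genes 9 were lower and 4 higher in wild fish past the threshold of 0.05 on the adjusted p. Among radial glia and astrocyte genes 1 was lower and 4 higher, among oligodendrocyte genes 3 and 2, and among red cell genes 3 and 1. *TNNT3* was higher. Of all genes tested 21.8% were lower and 19.8% higher, and of those that carry a name 33.4% and 32.5%. The sums of all these cell types thus moved with the groups, those of neurons and oligodendrocytes with some overlap, and their part in the values below was not tested. In whole brains, fewer cells of a type and less RNA per cell cannot be told apart.

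RNA-binding proteins decide what becomes of a transcript after it is made. In neurons they choose exons, carry messages into axons and dendrites and set when these are translated. NOVA2 and HNRNPK are both KH-domain proteins and NOVA2 is known in the mouse as a splicing regulator of neurons that acts on transcripts for axon guidance. TNRC6C belongs to the GW182 family, the scaffolds through which Argonaute proteins silence the targets of microRNAs. DDX3X is a DEAD-box helicase that unwinds structured leaders of messages at translation initiation, and FAM120A is known from human cells as an RNA-binding scaffold protein. Teleost fish often keep more than 1 copy of a gene that mammals have once.

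In wild brains 4 of the 6 genes were at a small part of their captive level, and the *HNRNPK* copies lay close to it on opposite sides. The fit across all genes put 5 of the 6 lower and 1 higher in wild fish at an adjusted p under 0.05, a share to be set against 41.6% of all 19517 genes tested and 65.9% of those that carry a name. Since the genes were chosen on this contrast, nothing is read from that count. The groups did not overlap in 5 of the 6 genes (39.8% of all genes tested). All 6 genes passed the filter of at least 1 count in each library, and the lowest count of any of them was 16.

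*NOVA2* (Nfu_g_1_016415), the neuronal splicing regulator, was at 18.0, 25.2, 22.8 and 24.0 CPM in the wild fish A41_A_3m, A41_A_5m, A41_A_7m and A41_A_11m, and at 167, 176, 173 and 174 CPM in the captive fish MZM_0410_124, MZM_0410_125, MZM_0410_126 and MZM_0410_127. Values of single fish are given in this order throughout. All wild fish were far below all captive fish, and the captive fish were almost alike. The mean was 22.5 ± 3.19 CPM in wild fish, with 172.5 ± 3.55 CPM in captive fish (SD, n = 4 each), so that wild brains held 13.0% of the captive level. The log2 fold change was -2.94 (SE 0.10), and -2.17 (SE 0.23) in a fit with RNA integrity as a further term, which overlaps with condition. The wild counts, 254 to 361 reads per library, were well above the range where single reads matter.

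*TNRC6C* (Nfu_g_1_013732), the microRNA silencing scaffold, was at 2.40, 1.89, 2.33 and 1.73 CPM in the wild fish and at 51.0, 62.2, 54.3 and 60.9 CPM in the captive fish. Every wild library held only 25 to 34 reads of this gene, against 592 to 872 reads in captive libraries. Wild brains were at 3.66% of the captive mean, and between single fish the captive level was 21.2 to 35.9 times the wild one. The log2 fold change was -4.77 (SE 0.12), place 22 from the lowest among all genes tested, and -4.79 (SE 0.53) with the integrity term.

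*FAM120A* (Nfu_g_1_001852), the RNA-binding scaffold, was at 7.85, 7.69, 6.86 and 9.77 CPM in wild fish and at 95.8, 107, 103 and 100.2 CPM in captive fish. Again no wild fish came near a captive one. The mean of wild brains, 8.04 ± 1.23 CPM, was 7.91% of the 101.6 ± 4.85 CPM in captive brains (SD, n = 4 each). The log2 fold change was -3.66 (SE 0.10), and -3.73 (SE 0.39) with the integrity term.

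The *DDX3X* copy Nfu_g_1_013975, whose symbol after the zebrafish homolog is *PL10*, showed the widest gap of the 6 genes. It was at 1.63, 1.47, 1.10 and 2.15 CPM in wild fish, from 23, 21, 16 and 31 reads. In captive fish it was at 60.5, 128, 87.1 and 112 CPM, from 703, 1682, 1082 and 1603 reads. The captive fish differed among themselves by 2.12 times, and yet the lowest of them was 28.2 times the highest wild fish. Wild brains held 1.63% of the captive mean, log2 fold change -5.93 (SE 0.29), and -5.00 (SE 1.30) with the integrity term. Only 4 of the genes tested had a lower fold change. Fitted captive levels of over 15 times the wild level were found in 0.405% of all genes tested, and of over 5 times in 2.18%.

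*HNRNPK* has a pair of rows in the table, and these went apart. HNRNPK binds C-rich stretches of RNA and DNA and takes part in splicing, stability and translation. The copy Nfu_g_1_009159 was at 280, 318, 293 and 281 CPM in wild fish and at 191, 227, 205 and 210.2 CPM in captive fish, so that the lowest wild fish was above the highest captive fish. Its log2 fold change was 0.49 (SE 0.07), or 0.84 (SE 0.22) with the integrity term, and the wild mean was 140.6% of the captive one. The copy Nfu_g_1_006604 was at 47.5, 46.6, 58.4 and 51.7 CPM in wild fish and at 56.7, 68.0, 62.6 and 66.6 CPM in captive fish. Here wild fish A41_A_7m lay above captive fish MZM_0410_124, and the groups overlapped. Its log2 fold change was -0.31 (SE 0.09), and the wild mean was 80.4% of the captive one. The integrity term turned the sign of this copy, to 0.05 (SE 0.30).

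**Figure D1:**
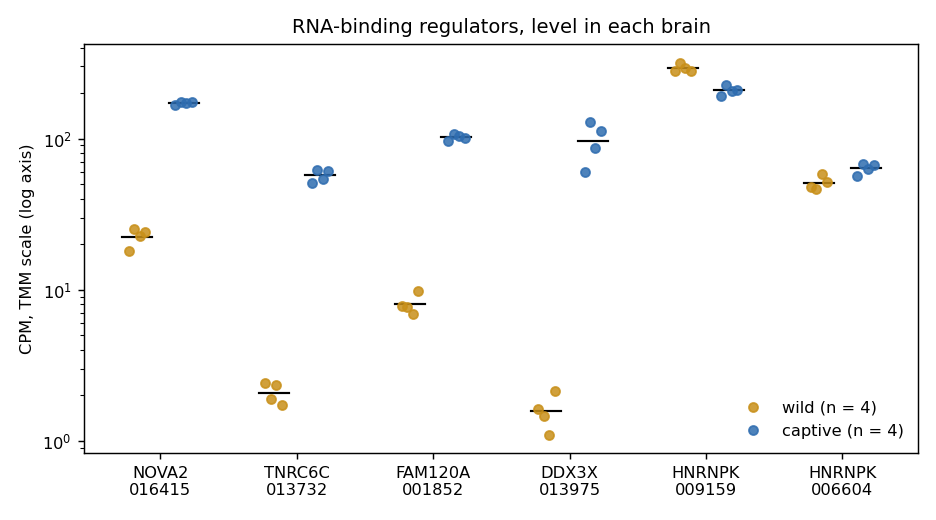
Level of each gene in each brain, as CPM on the TMM scale on a log axis. Gold points are the 4 wild fish, blue points the 4 captive fish and black lines the group means. *NOVA2*, *TNRC6C*, *FAM120A* and the *DDX3X* copy have all wild points far below the captive ones, *HNRNPK* Nfu_g_1_009159 has them above, and *HNRNPK* Nfu_g_1_006604 has 1 wild fish at 58.4 CPM above the lowest captive fish at 56.7 CPM.

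Levels of different genes were compared per transcript length, as the RPKM values of the authors. In wild brains the order was clear at the top, with *HNRNPK* Nfu_g_1_009159 at 65.6 to 75.5 RPKM, *HNRNPK* Nfu_g_1_006604 at 18.8 to 23.1, *NOVA2* at 4.84 to 6.81 and *FAM120A* at 2.21 to 3.14 RPKM. The last genes of the order, the *DDX3X* copy at 0.424 to 0.83 RPKM and *TNRC6C* at 0.383 to 0.539 RPKM, overlapped. In captive brains the genes lay much closer. *HNRNPK* Nfu_g_1_009159 was at 43.7 to 51.9 RPKM and *NOVA2* at 43.6 to 45.9 RPKM, and both overlapped with the *DDX3X* copy at 22.9 to 48.5 RPKM. *FAM120A* at 30.2 to 33.8 RPKM lay within the range of the *DDX3X* copy. *HNRNPK* Nfu_g_1_006604 at 22.0 to 26.4 RPKM overlapped with the lower end of the *DDX3X* copy only. *TNRC6C* was the lowest of the 6, at 11.1 to 13.5 RPKM, and overlapped with none. The 6 transcripts were 2530 to 4533 bases long, against a median of 2664 bases over all genes tested.

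The genes were chosen for their difference between the groups, and such a choice can depend on the spread within them. The spread among fish of the same group is therefore also given as a description. Among captive fish *NOVA2* varied very little. Its coefficient of variation was 2.06%, while counting error alone at this depth gives 2.12%, and only 5.0% of the 500 genes nearest in level had a smaller spread on the log2 scale. Among wild fish its coefficient of variation was 14.2%, with 5.56% from counting, and 77.8% of the genes nearest in level had a smaller spread. The *DDX3X* copy was the opposite case. Its coefficient of variation among captive fish was 30.6% with 2.81% from counting, and 99.8% of the genes nearest in level were less variable. In wild fish it varied by 27.5%, of which counting error at so few reads makes up a large part (21.0% alone), and 43.8% of genes of like level had less spread. *TNRC6C* in wild fish varied by 15.8%, below the 18.3% from counting alone, so differences between wild fish were not detectable at this depth. *FAM120A* varied by 15.3% in wild and 4.78% in captive fish. The *HNRNPK* copies varied by 6.11% and 10.5% in wild fish and by 7.13% and 8.00% in captive fish, for Nfu_g_1_009159 and Nfu_g_1_006604 in this order.

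**Figure D2:**
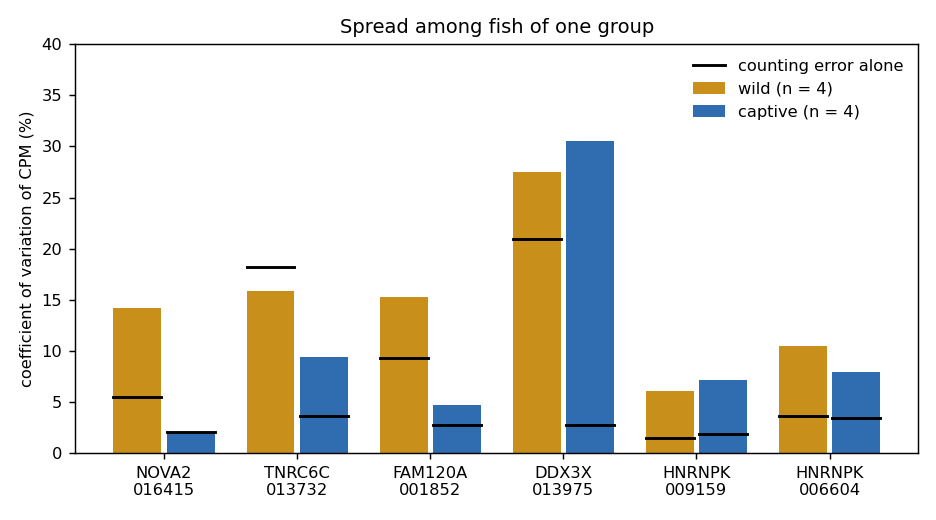
Coefficient of variation of CPM among the 4 fish of a group, in percent, for each gene (gold bars wild, blue bars captive), with black lines at the value that counting error alone gives. The *DDX3X* copy reaches 30.6% in captive fish against 2.81% from counting, *NOVA2* in captive fish sits at its counting error (2.06% and 2.12%), and *TNRC6C* in wild fish lies under it (15.8% and 18.3%).

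The captive fish kept the same extremes across the 6 genes. Captive fish MZM_0410_124 was the lowest captive fish and captive fish MZM_0410_125 the highest in all 6 genes on the TMM scale. This combination was found in 10.6% of all genes tested. Fish MZM_0410_124 was also the smallest library, and taken alone it was the lowest captive fish in 27.2% of genes. With RPM values in place of TMM, fish MZM_0410_124 remained the lowest in 6 of 6 genes and fish MZM_0410_125 was the highest in 5 of 6, since *NOVA2* was then highest in fish MZM_0410_127. For *NOVA2* the captive spread, 2.06%, was no larger than the 2.12% from counting alone, so its order of captive fish is uncertain. Wild fish showed no such order, and each of them was the lowest in 1 or 2 of the 6 genes. Genes chosen together are not independent of each other, and this is a description.

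The other copies and relatives of the 6 genes were not among the chosen rows. The family lists found 11 further rows, and all 11 were tested. Of these, 7 were lower and 3 higher in wild fish past the threshold of 0.05 on edgeR's adjusted p, and 1 did not pass. Among all genes tested 21.8% were lower and 19.8% higher, and among the 7344 genes that carry a name 33.4% and 32.5%. Names come from the supplementary tables of the study, and 9 of the 11 rows are named only through the list of condition-dependent genes. That list was chosen in part on these libraries. A relative without a difference may therefore lack a name here, and the count is not independent evidence. In a fit with RNA integrity as a further term, none of the 34 named relatives and list genes passed the threshold. The lowest adjusted p in edgeR was 0.114. An unadjusted p under 0.05 in that fit was found for 20 of the 146 list genes and for 2644 of all 19517 genes tested. Nothing is read from that count of list genes.

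The other *NOVA2* copy, Nfu_g_1_005129, was at 29.9, 32.2, 32.8 and 35.9 CPM in wild fish and at 80.6, 118, 88.8 and 93.0 CPM in captive fish. It fell by 1.54 on the log2 scale (SE 0.12, adjusted p = 6.2e-06), and its groups were apart. Both *NOVA2* copies were thus lower in all wild fish, to 34.3% of the captive mean for this copy and to 13.0% for Nfu_g_1_016415. No row named *NOVA1* was found.

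All 4 other rows of the TNRC6 family fell in wild brains. *TNRC6A* (Nfu_g_1_019620) was at 101 ± 4.01 CPM in wild fish, with 222 ± 16.2 CPM in captive fish (SD, n = 4 each), log2 fold change -1.14 (SE 0.06, adjusted p = 1.1e-06 in edgeR). The *TNRC6B* row Nfu_g_1_019627 was at 29.1 ± 2.03 CPM in wild fish and at 58.3 ± 1.54 CPM in captive fish (adjusted p = 2.9e-06 in edgeR), and Nfu_g_1_023055 fell by 0.72 (SE 0.06). The other *TNRC6C* row, Nfu_g_1_019671, was at 107, 117, 109 and 121 CPM in wild fish and at 175, 189, 170.1 and 194 CPM in captive fish, log2 fold change -0.68 (SE 0.06, adjusted p = 2.4e-05). In none of the 4 rows did a wild fish reach a captive one. These rows were at 45.5% to 62.2% of their captive means, while *TNRC6C* Nfu_g_1_013732, which was chosen on this contrast, was at 3.66%.

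The other *DDX3X* row, Nfu_g_1_005991, is the more abundant one. It was at 288, 287, 271 and 360 CPM in wild fish and at 503, 479, 576 and 556 CPM in captive fish. It fell by 0.81 on the log2 scale (SE 0.10, adjusted p = 0.00012). The order of the captive fish was not that of Nfu_g_1_013975, since here fish MZM_0410_125 was the lowest and fish MZM_0410_126 the highest.

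The relatives of *HNRNPK* are the poly(C)-binding proteins, which share its KH domains. *PCBP3* (Nfu_g_1_014280) rose in wild brains, at 118 ± 17.1 CPM against 88.6 ± 5.89 CPM in captive fish (SD, n = 4 each), log2 fold change 0.41 (SE 0.10, adjusted p = 0.0078). *PCBP2* (Nfu_g_1_021374) was at 80.6 ± 2.49 CPM in wild fish, with 71.8 ± 2.58 CPM in captive fish, log2 fold change 0.17 (SE 0.05, adjusted p = 0.022). This call was lost when wild fish A41_A_7m, captive fish MZM_0410_124, captive fish MZM_0410_126 or captive fish MZM_0410_127 was left out (adjusted p = 0.058, 0.071, 0.054 and 0.055) and when the trend on transcript length was removed (adjusted p = 0.054), and over all 16 alternatives the adjusted p ran from 0.0043 to 0.65.

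In the FAM120 family the second *FAM120A* row, Nfu_g_1_010401, was at 41.7, 47.2, 46.3 and 44.4 CPM in wild fish and at 48.1, 56.3, 52.8 and 57.3 CPM in captive fish. It fell by 0.26 on the log2 scale (SE 0.07, adjusted p = 0.017), with the groups just apart, and was at 0.11 with the integrity term. *FAM120B* (Nfu_g_1_003334) rose, at 16.2 ± 1.51 CPM in wild fish, with 12.2 ± 0.96 CPM in captive fish, log2 fold change 0.41 (SE 0.10, adjusted p = 0.011). The row Nfu_g_1_022773 carries the human name *FAM120A* but the symbol *PHF2*, so its identity is uncertain. It was at 68.3 ± 5.23 CPM in wild fish, with 70.7 ± 3.41 CPM in captive fish (adjusted p = 0.59), and its sign changed with the scaling.

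**Figure D3:**
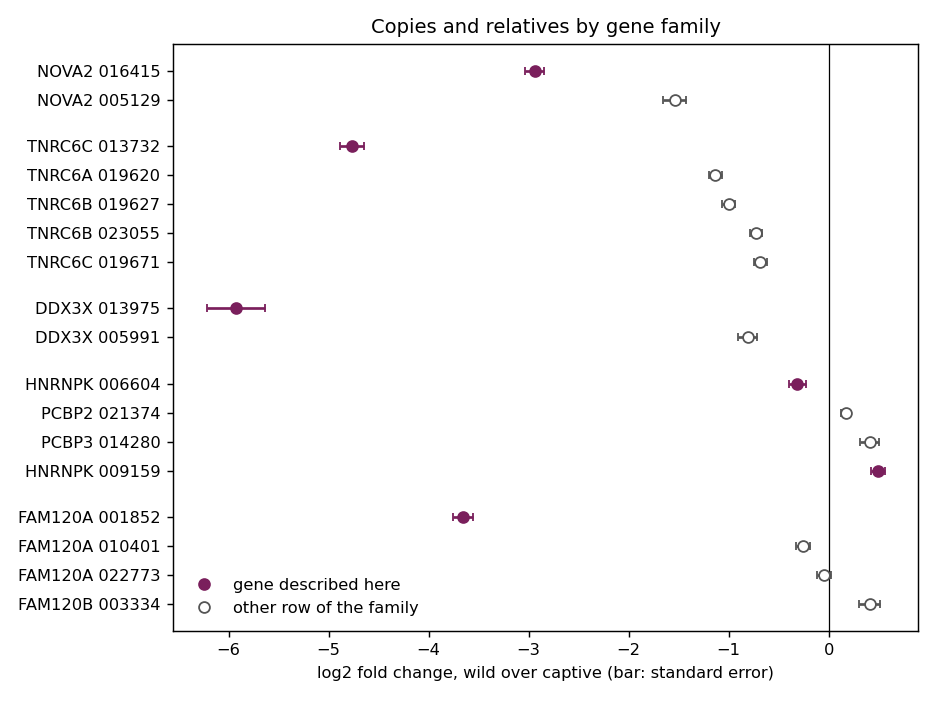
Log2 fold change of wild over captive fish for the 17 rows of the 5 families, with bars of 1 standard error. Filled points are the 6 genes described here and open points the other 11 rows. The filled points of *NOVA2*, *TNRC6C*, *FAM120A* and *DDX3X* lie at -2.94, -4.77, -3.66 and -5.93, while the lowest open point, *NOVA2* Nfu_g_1_005129, lies at -1.54.

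Because the copies changed to different extents, the share of each copy in the level of the gene differed between the groups. Shares are given per transcript length, over the sum of the RPKM of both copies. For *FAM120A* these are Nfu_g_1_001852 and Nfu_g_1_010401. The row Nfu_g_1_022773 of uncertain name, at 11.7 ± 0.83 RPKM in wild fish and at 11.9 ± 0.48 RPKM in captive fish, was left out. The *DDX3X* copy Nfu_g_1_013975 made up 1.08%, 0.98%, 0.78% and 1.14% of the sum in wild fish and 18.8%, 34.1%, 22.6% and 28.0% in captive fish. For *TNRC6C*, Nfu_g_1_013732 held 4.95% ± 1.01 in wild and 46.7% ± 1.32 in captive fish (SD, n = 4 each). *FAM120A* Nfu_g_1_001852 was the minor copy in wild fish, with 15.7%, 13.8%, 12.8% and 17.8%, and the major one in captive fish, with 66.2%, 65.3%, 65.9% and 63.3%. Among the *NOVA2* copies the order was likewise turned, with 34.6% ± 2.48 from Nfu_g_1_016415 in wild and 58.6% ± 3.59 in captive fish. *HNRNPK* Nfu_g_1_009159 was the major copy in both groups, with 77.2% ± 2.28 in wild and 66.0% ± 0.63 in captive fish.

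For all 4 genes that were far lower in wild brains, the sum of both copies was lower too. The summed RPKM of both *DDX3X* copies was 61.3 ± 7.91 in wild and 141 ± 13.9 in captive fish, 0.434 times the captive value. That of *NOVA2* averaged 17.3 in wild fish and 77.5 in captive fish, 0.224 times. For *TNRC6C* the sum was 0.355 times and for *FAM120A* 0.350 times the captive one. The sum of the *HNRNPK* copies was 89.3 ± 4.32 RPKM in wild and 72.9 ± 5.32 RPKM in captive fish, 1.23 times. These sums contain the chosen genes and are given without a test. The authors kept 1 alignment per read, so reads that fit several copies equally well cannot be assigned with certainty, and the split between near-identical copies is uncertain to that extent. Wild fish differ genetically from the captive strain, and a lower level of a copy and a poorer mapping of its reads cannot be told apart.

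**Figure D4:**
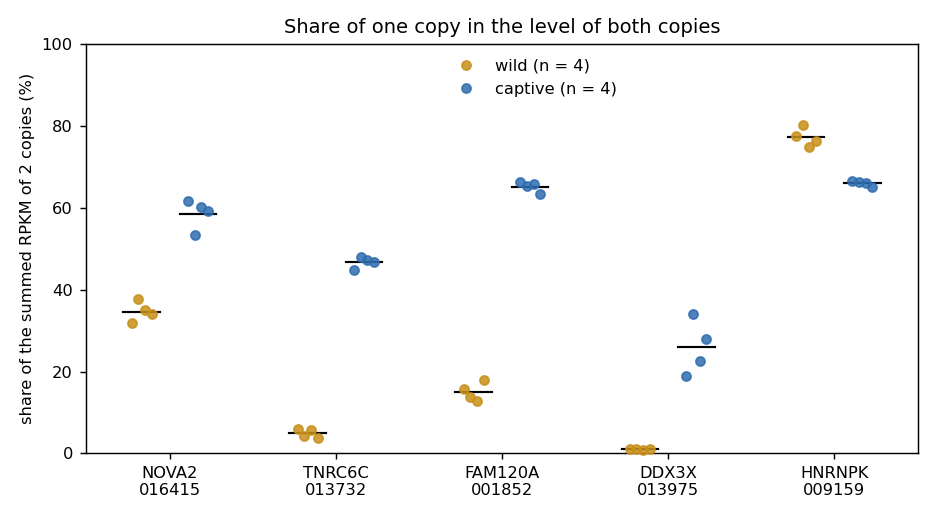
Share of 1 copy in the summed RPKM of both copies of the same gene, in percent, for each wild (gold) and captive (blue) fish, with group means as black lines. *NOVA2* Nfu_g_1_016415 and *FAM120A* Nfu_g_1_001852 are the minor copy in every wild fish and the major copy in every captive fish, and *DDX3X* Nfu_g_1_013975 holds between 0.78% and 1.14% in wild fish.

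Genes of the same functions were described by 5 lists, which leave out the 6 chosen genes and partly share members. They count again the 11 relatives described above, among them the 4 rows of the TNRC6 family in microRNA silencing. In the list of microRNA silencing, 28 rows were tested, and 15 fell, 8 rose and 5 did not pass in wild brains. These are 53.6% lower and 28.6% higher, against 33.4% and 32.5% of the named genes and 21.8% and 19.8% of all genes tested, and the median log2 fold change was -0.24. The median over all genes tested was 0.04. The genes that fell included the Argonaute genes *AGO3* (Nfu_g_1_012275), at 10.9 ± 2.29 CPM in wild fish, with 33.0 ± 3.30 CPM in captive fish, and *AGO4*, at 40.9 ± 14.1 CPM in wild fish, with 114 ± 7.21 CPM in captive fish (SD, n = 4 each), the effectors that TNRC6 proteins bind. Their log2 fold changes were -1.60 (SE 0.14) and -1.48 (SE 0.21). The other rows named *AGO3* carry the symbol *EIF2C1*, so their identity is uncertain, and they were looked up after their values were seen. Of these, the low Nfu_g_1_011007 had -3.37 (SE 0.47). Nfu_g_1_010929, the most abundant, did not pass, at 47.7 ± 0.73 CPM in wild fish and at 51.8 ± 2.53 CPM in captive fish (adjusted p = 0.12 in edgeR). *EDC3* and *PATL1*, factors of mRNA decapping, and *CNOT10*, a subunit of the CCR4-NOT deadenylase, rose by 0.66 (SE 0.08), 0.39 (SE 0.06) and 0.39 (SE 0.06). Other rows of these functions were looked up after their values were seen. The CCR4-NOT rows *CNOT1*, *CNOT2* Nfu_g_1_011938 and *CNOT6* had -0.57 (SE 0.05), -0.46 (SE 0.11) and -0.19 (SE 0.05). *CNOT7*, *CNOT2* Nfu_g_1_008215 and *CNOT4* had 0.36 (SE 0.08), 0.32 (SE 0.07) and 0.32 (SE 0.07). *DCP1A* and *DCP1B* of decapping did not pass (adjusted p = 0.87 and 0.68 in edgeR). *DICER1*, which cuts precursors into microRNAs, fell by 0.96 on the log2 scale (SE 0.09) and was picked after its value was seen. *DGCR8*, another list gene of microRNA processing, was looked up in the same way and did not pass. It was at 169 ± 9.89 CPM in wild fish and at 162 ± 6.01 CPM in captive fish (adjusted p = 0.46 in edgeR). Of the 28 rows 15 have a name only through the condition-dependent list, and among the other 13 rows 5 fell and 3 rose.

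Among the 48 rows of the list named neuronal splicing regulators, 18 fell, 10 rose and 20 did not pass (median log2 fold change -0.03). This list also holds general splicing factors, such as *SRSF1*, *SFPQ* and *RBM5*, so its counts do not describe neuronal regulators alone. The 37.5% that fell and 20.8% that rose stand against 33.4% and 32.5% of the named genes and 21.8% and 19.8% of all genes tested. *CELF5* (Nfu_g_1_020918), a splicing factor of neurons, was at 8.40 ± 1.01 CPM in wild fish, with 38.2 ± 5.36 CPM in captive fish (SD, n = 4 each), log2 fold change -2.18 (SE 0.13, adjusted p = 1.5e-06 in edgeR). *SRRM3* (Nfu_g_1_022202), which promotes neuronal microexons in mammals, fell by 1.42 (SE 0.13). Other rows of these names were looked up after their values were seen. The more abundant *CELF5* row Nfu_g_1_016009 fell by only 0.44 (SE 0.08), and the low Nfu_g_1_025347 by 2.14 (SE 0.20). The row Nfu_g_1_019322, named *SRRM3* but with the symbol *SRRM2*, was far more abundant. It was at 145 ± 3.55 CPM in wild fish and at 141 ± 4.14 CPM in captive fish and did not pass (adjusted p = 0.55 in edgeR). The largest rises by the naming rule were *RBM10* (Nfu_g_1_010208 and Nfu_g_1_016607) with 0.54 (SE 0.15) and 0.49 (SE 0.09) and a row named *TRA2B* or *TRA2A* with 0.54 (SE 0.07). With RNA integrity as a further term both *RBM10* rows had the opposite sign (-0.45 and -0.25). Without the 19 rows named only through the condition-dependent list, 3 of 29 fell and 6 rose. With the trend on transcript length removed, the number that rose was 16.

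The hnRNP proteins, the group of nuclear RNA-binding proteins to which HNRNPK belongs, had 18 rows tested, of which 8 rose, 1 fell and 9 did not pass (median log2 fold change 0.16). The 44.4% that rose and 5.56% that fell stand against 32.5% and 33.4% of the named genes and 19.8% and 21.8% of all genes tested. Without the 4 rows named only through the condition-dependent list, 4 of 14 rose and 1 fell. *HNRNPH3* was at 115 ± 3.46 CPM in wild fish, with 78.8 ± 0.89 CPM in captive fish (SD, n = 4 each), log2 fold change 0.54 (SE 0.05, adjusted p = 1.3e-05 in edgeR). A row named *HNRNPUL1*, with the symbol *HNRNPUL2*, had 0.86 (SE 0.11). The row that fell was *HNRNPLL*, at -0.28 (SE 0.06), and at 0.0082 with the integrity term. The value of *HNRNPK* Nfu_g_1_009159, 0.49, lay within the range of the list, which ran from -0.28 to 0.86, and that of *HNRNPK* Nfu_g_1_006604, -0.31, lay just below it.

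Of 15 rows of DEAD-box helicases, the group of DDX3X, 8 rose, 3 fell and 4 did not pass (median log2 fold change 0.24). Among the named genes 32.5% rose and 33.4% fell, and among all genes tested 19.8% and 21.8%, while here it was 53.3% and 20%. Without the 5 rows named only through the condition-dependent list, 5 of 10 rose and 1 fell. *DDX51*, *DDX21* and *DDX49*, known from ribosome biogenesis, rose by 0.49 (SE 0.12), 0.45 (SE 0.07) and 0.42 (SE 0.07). Further rows were looked up after their values were seen. *DDX56* and *DDX27*, of the same function, did not pass (adjusted p = 0.30 and 0.14 in edgeR). The other rows that rose were *EIF4A3*, *DDX1*, *DDX23*, *DDX39A* and *DDX18*, from 0.31 (SE 0.05) for *EIF4A3* to 0.23 (SE 0.06) for *DDX18*. The 3 rows that fell were *DDX3X* Nfu_g_1_005991 and the *DDX6* rows Nfu_g_1_012285 and Nfu_g_1_000750, with -0.81 (SE 0.10), -0.72 (SE 0.06) and -0.29 (SE 0.06). DDX6 acts in microRNA silencing and in storage of messages. The value of the *DDX3X* copy Nfu_g_1_013975, -5.93, was far outside the range of this list, from -0.81 to 0.49. That copy was chosen on this contrast. The 5 list rows named only through the condition-dependent list also depend in part on these libraries. The gap is therefore a description only.

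Of 41 rows for mRNA transport and local translation, where FAM120A was placed, 18 fell, 10 rose and 13 did not pass (median log2 fold change -0.12). In percent, 43.9% fell and 24.4% rose, against 33.4% and 32.5% of the named genes and 21.8% and 19.8% of all genes tested. The rows that fell include *ZBTB18* (-0.53, SE 0.06), a transcription factor gene that the list holds although it is not of this function. *CPEB4* (Nfu_g_1_005407), a cytoplasmic polyadenylation factor that regulates translation at synapses, was at 51.9 ± 6.25 CPM in wild fish, with 181 ± 12.7 CPM in captive fish (SD, n = 4 each), log2 fold change -1.81 (SE 0.09, adjusted p = 6.1e-07 in edgeR). *THOC2* (Nfu_g_1_005257) of the mRNA export complex and *PUM2* (Nfu_g_1_019064), a translational repressor, fell by 1.67 (SE 0.17) and 0.96 (SE 0.07). Other rows of these names, looked up after their values were seen, went differently. *PUM2* Nfu_g_1_018854 rose by 0.29 (SE 0.06, adjusted p = 0.0035 in edgeR). *THOC2* Nfu_g_1_005050, at 109 ± 6.15 CPM in wild fish and at 120 ± 5.30 CPM in captive fish, did not pass (adjusted p = 0.084 in edgeR). The other *CPEB4* row, Nfu_g_1_000765, was looked up in the same way. It was at 84.4 ± 4.78 CPM in wild fish and at 110 ± 2.02 CPM in captive fish and fell by only 0.38 (SE 0.05). *RBM8A* and *UPF3A*, which act in the exon junction complex and in nonsense-mediated decay, rose by 0.50 (SE 0.06) and 0.43 (SE 0.05), and *FAM120B* was next. Factors of that complex and of that decay were split between the directions, as a later look at known values showed. *UPF2* fell by 0.37 (SE 0.08) and *CASC3* by 0.22 (SE 0.07). *UPF1* fell by 0.19 (SE 0.06), with overlap between the groups. *EIF4A3*, given above among the helicases, rose. Of the 41 rows 15 are named only through the condition-dependent list, and among the other 26 rows 7 fell and 7 rose.

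**Figure D5:**
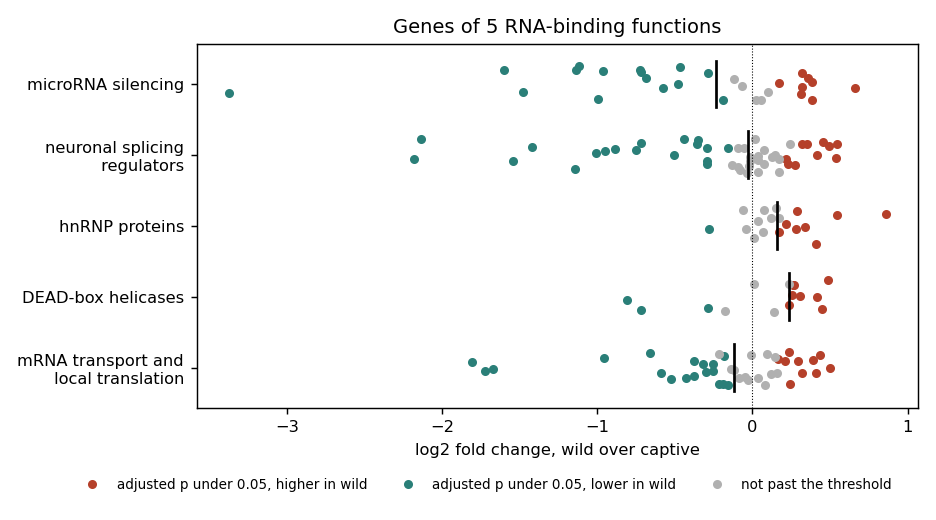
Log2 fold change of wild over captive fish for each tested gene of the 5 lists, without the 6 chosen genes. Red points rose and green points fell in wild fish at an adjusted p under 0.05, grey points did not pass, and black lines are list medians, from -0.24 for microRNA silencing to 0.24 for DEAD-box helicases.

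For each gene the named genes with the most similar profile were sought among 6541 named genes with 100 or more counts on average, by the root mean square difference of centred log2 CPM over the 8 libraries. Genes with a like difference between the groups come out as similar by this measure, and all of them share the same libraries. Nearest to *NOVA2* were *ZNF646*, *CBL* and *GAD2* with differences of 0.14, 0.14 and 0.19. *GAD2*, at a log2 fold change of -3.06, is also on the neuron list, where 9 genes were lower and 4 higher in wild fish. Its bearing on *NOVA2* was not tested. *TNRC6C* had *WDFY3* at 0.16, *ARHGAP44* at 0.20 and *BAHCC1* at 0.29. *FAM120A* had *HTT* at only 0.06, followed by *PTPRB* at 0.15 and *SLC6A9* at 0.21. The *DDX3X* copy had no close neighbour, with *EP400*, *HERC2* and *PPP2R5A* at 0.43, 0.47 and 0.50. *HNRNPK* Nfu_g_1_009159 was most like *MRPL40*, *FAM222A* and *LARP7*, at 0.03 to 0.06, and *HNRNPK* Nfu_g_1_006604 like *NUP214*, *PPFIA2* and *SPEN*, at 0.04 to 0.05.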

How the data were processed

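Poly(A) RNA of 8 whole brains was sequenced with a directional kit. The submitters' processing notes name bcl2fastq 2.20.0.422, TopHat2 2.1.0 and featureCounts 1.6.5. Reads were aligned to a hard-masked genome of the species, and those on the reverse strand were counted per gene. The deposited table holds whole read counts. The deposited RPM and RPKM values were computed by the authors from these counts, and transcript lengths were derived here from their ratio. Counts with at least 1 read in each library were scaled by TMM and tested in R 4.3.3 with edgeR 4.0.16 (quasi-likelihood F-test, condition as the only term, Benjamini-Hochberg adjustment over all genes, threshold 0.05). The SE is the log2 fold change divided by the root of F. Limma 3.58.1 and DESeq2 1.42.0 gave alternatives. The fit was also run on simulated counts in which far fewer genes changed than were called here. That run does not give the error rate in these data, and nothing is read from it.

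The 6 genes and the lists were chosen with earlier results of these data known. Genes named in the lists are the 3 with the largest rise and fall among called genes with groups apart and 100 or more counts on average, and all of a direction with 5 or fewer. Names and RNA integrity numbers come from the supplementary tables. No identifier matched the RefSeq gene table, so no coordinates or sequences are given.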

Additional observations from a re-analysis of the deposited data

How the results depend on the processing

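The 8 settings tried were RLE or upper quartile size factors, no count filter, filterByExpr, DESeq2, limma-trend on log2(RPM + 0.5), removal of the length trend and RNA integrity as a covariate, besides leaving out each library. Without the integrity term, the 6 chosen genes kept their sign, and of the 34 other genes followed only *PCBP2* and the row Nfu_g_1_022773 changed call or sign. *FAM120A* Nfu_g_1_022773, which never passed, was 0.0069 with upper quartile factors, 0.0425 with the length trend removed, 0.37 with integrity and between -0.087 and 0.0011 when single libraries were left out. *TNRC6C* was -4.45 in limma-trend. That setting adds 0.5 to every RPM value before the log, which shrinks fold changes of genes with a very low group. *TNRC6C* was at 1.73 to 2.40 CPM in wild fish, and the *DDX3X* copy was as low, at 1.10 to 2.15 CPM. The share of this offset in the shift was not tested. In the list of neuronal splicing regulators, which also holds general splicing factors, 16 rows rose with the length trend removed. Of all genes 8115 differed, 47.6% of them higher in wild fish. Upper quartile factors gave 8834 with 57.1% higher and limma-trend 8435 with 52.3% higher, so that the more common direction turned. Leaving out single libraries gave 6818 to 7809.

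The integrity covariate follows condition, lower in every wild fish, and this fit cannot tell them apart. With it 46 genes differed (6 higher, 40 lower), and the family and list counts of both directions were 0. An unadjusted p under 0.05 in edgeR was found for 20 of 146 list genes and for 2644 of all 19517 genes tested. *NOVA2*, the *DDX3X* copy, *HNRNPK* Nfu_g_1_009159 and *HNRNPK* Nfu_g_1_006604 had -2.17, -5.00, 0.84 and 0.0455, the last with the sign turned. *FAM120A* Nfu_g_1_010401 (0.11), *RBM10* Nfu_g_1_016607 (-0.25) and Nfu_g_1_010208 (-0.45) and *HNRNPLL* (0.0082) changed sign. No paired analysis was possible because the wild and captive fish are separate animals and the design holds no pairs.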
